A study of Homo sapiens with 6 samples.

Results

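The mRNAs of the mitochondrial genome and the nuclear genes of respiratory complex I were followed in BT20 cells, an established triple negative breast cancer line, after knockdown of KRT5. Members were the 13 mRNAs of mitochondrial DNA and every gene symbol made of NDUF, a letter code for subunit or assembly factor (A, B, C, S, V, AB or AF) and a number. This gave 59 of the 56505 rows of the gene count table: 13 mitochondrial mRNAs, 38 nuclear subunits and 8 assembly factors. RNA was sequenced from 3 libraries of cells with a control short hairpin RNA (shControl) and 3 libraries of cells with a hairpin that targets the cytokeratin 5 mRNA (shCK5-22), both in a pLK0 vector. Both groups were the same line in DMEM/F12 with 10% fetal bovine serum and received no further treatment, and a single hairpin represents the knockdown.

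Complex I passes electrons from NADH to ubiquinone and pumps protons across the inner mitochondrial membrane. Its matrix arm is built entirely from nuclear-encoded subunits (the N module, which oxidizes NADH, and the Q module, which reduces ubiquinone), whereas the membrane arm (the P module) combines nuclear subunits with the products of the mitochondrial MT-ND genes. Mitochondrial DNA is transcribed from both strands into long precursors that are cut into individual RNAs, and MT-ND6 is the only mRNA of the light-strand precursor. MT-CO1 to MT-CO3 encode core subunits of cytochrome c oxidase. The remaining mitochondrial mRNAs encode cytochrome b of complex III (MT-CYB) and membrane subunits of ATP synthase (MT-ATP6 and MT-ATP8).

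KRT5 was 230.6, 246.5 and 244.2 CPM (counts scaled to library size) in the shControl libraries and 21.04, 22.69 and 24.08 CPM in the shCK5-22 libraries, which matches the labels. Libraries held 47622067 to 65429616 counts, and 18008 genes passed the filter on low counts. The epithelial markers summed to between 9315 and 9704 CPM in shControl and between 8541 and 9013 CPM in shCK5-22, and the 5 leukocyte markers to at most 1.23 CPM in any library. The 4 endothelial markers summed to 23.4 to 31.3 CPM in shControl and 19.2 to 31.2 CPM in shCK5-22, most of it CDH5 at 16.5 to 26.8 CPM. ESR1 and ERBB2, receptors that are low in triple negative cells, averaged 14.5 and 120.2 CPM in shControl. PGR, from the same list of receptors, had 0 to 4 counts per library. Of 5 fibroblast markers, PDGFRA and THY1 were at 0 in every library, and the list summed to 0.0832 to 0.254 CPM in shControl and 1.04 to 1.74 CPM in shCK5-22. The libraries of shControl resembled each other closely (chi-square per degree of freedom over genes, 3.46 to 4.89), whereas shCK5-22 replicate 1 stood apart from replicate 2 (33.7) and replicate 3 (19.8). That library was the lowest of its group for 9 of 13 mitochondrial mRNAs and 27 of 32 tested nuclear subunits, against 33.7% of all tested genes. Calls of named genes that were lost without it are therefore pointed out, with values for some of them.

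Ends of mitochondrial coding sequences are shown for the mRNAs with the largest rise (MT-ND2, chrM:4470-5511, plus strand) and the largest fall (MT-ND6, chrM:14149-14673, minus strand) in GRCh38, with GENCODE 29 coordinates. Capitals mark the start codon in the first 30 bases, and in the last 30 bases the stop codon or the part of it that the DNA encodes.
MT-ND2 first 30 bases: ATTaatcccctggcccaacccgtcatctac
MT-ND2 last 30 bases: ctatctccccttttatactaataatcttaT
MT-ND6 first 30 bases: ATGatgtatgctttgtttctgttgagtgtg
MT-ND6 last 30 bases: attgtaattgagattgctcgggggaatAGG
The MT-ND2 gene encodes only the first base of its stop codon, and the rest is added with the poly-A tail. In all, 6 of the 13 genes encode an incomplete stop codon (2 bases in MT-ND1 and 1 base in the others: MT-ND1, MT-ND2, MT-ND3, MT-ND4, MT-CO3 and MT-CYB). These 6 genes include both mRNAs that rose, 3 that fell and MT-ND3. MT-ND6, by contrast, ends in a complete triplet and lies end to end with MT-ND5 (chrM:12337-14148) on the opposite strand.

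A further pair of mRNAs is translated from overlapping frames of 1 transcript. The 46 bases shared by MT-ATP8 and MT-ATP6 (chrM:8527-8572, plus strand) are shown because reads there can belong to either gene, with the MT-ATP6 start codon in capitals.
MT-ATP8 and MT-ATP6 overlap: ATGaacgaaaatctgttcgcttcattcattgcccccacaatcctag
MT-ND4L and MT-ND4 share 7 bases in the same way (chrM:10760-10766), so the values of both pairs are not fully separate.

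Of the 13 mitochondrial mRNAs, all tested, 10 fell in shCK5-22, 2 rose and MT-ND3 did not pass the test (edgeR quasi-likelihood test, Benjamini-Hochberg adjusted p under 0.05). The changes were small: the median log2 fold change was -0.11, against -0.01 over all tested genes, and the range was -0.38 to 0.17. Over all tested genes, 34.2% were called in either direction, 17.4% as higher and 16.8% as lower. Among the mitochondrial mRNAs 92.3% were called, and in 11 of 13 the libraries of the groups did not overlap, beside 45.1% of all tested genes. These mRNAs had 34880 to 1022964 counts per library, so small changes could pass the test. The shares over all tested genes include genes with far fewer counts, and shares for genes of similar level were not computed. The median absolute change was 0.13 for these mRNAs and 0.18 for all tested genes, and 39% of all called genes changed by at least as much as MT-ND6.

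**Figure D1:**
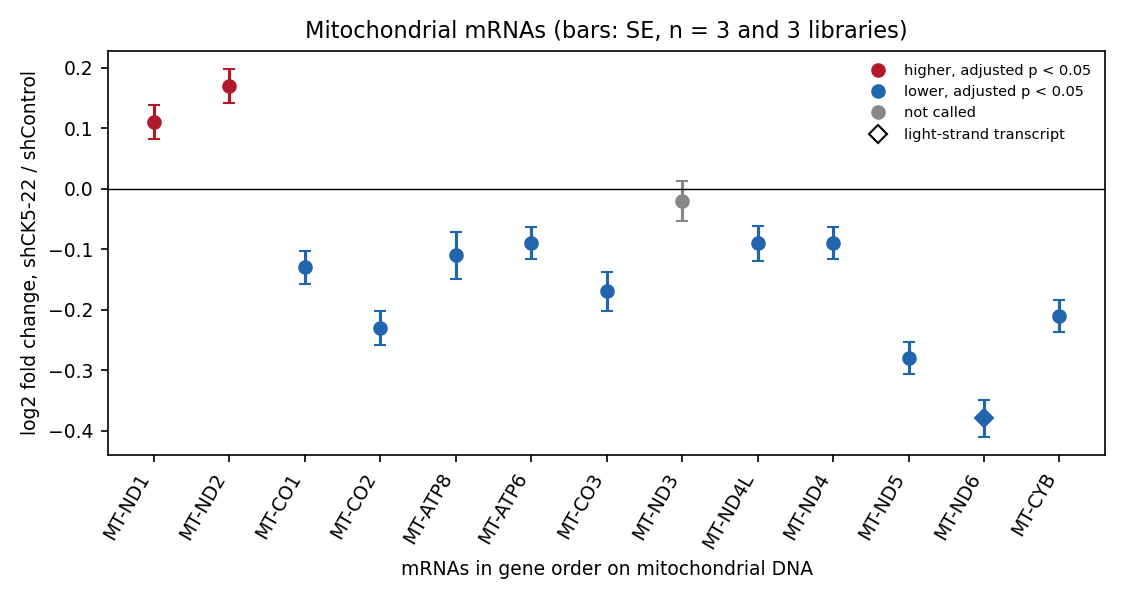
Log2 fold change of each mitochondrial mRNA (vertical axis, shCK5-22 over shControl, bars are SE) in gene order along mitochondrial DNA. MT-ND1 and MT-ND2, the first 2 genes, lie above 0, and MT-ND6, the only light-strand mRNA (diamond), is the lowest at -0.38.

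The 7 complex I mRNAs moved in both directions. MT-ND6, a membrane arm subunit, was 1164, 1199 and 1160 CPM in shControl and 864.7, 930.1 and 913.6 CPM in shCK5-22. Every shCK5-22 library lay below every control, a fall of 23.1% (log2 -0.38, SE 0.0301, adjusted p = 2.5e-09). MT-ND5, whose product is a proton-pumping subunit at the far end of the membrane arm, fell from 4732, 4895 and 4760 CPM to 3880, 4049 and 3957 CPM. Its groups also did not overlap (log2 -0.28, SE 0.0272, adjusted p = 7.02e-08). MT-ND4 fell by 5.98% (adjusted p = 0.0114) and MT-ND4L fell by 6.06% (adjusted p = 0.0193), both without overlap between the groups. MT-ND3 was 725.5, 751.4 and 712.9 CPM in shControl and 681.5, 741.9 and 735.5 CPM in shCK5-22 (log2 -0.02, SE 0.0328, adjusted p = 0.685), and its groups overlapped.

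MT-ND2, a proton-pumping subunit, was 4795, 4926 and 4696 CPM in shControl and 5364, 5540 and 5303 CPM in shCK5-22. Each shCK5-22 library exceeded each control (log2 0.17, SE 0.0279, adjusted p = 6.09e-05). MT-ND1, whose product lies where the membrane arm meets the matrix arm, was 3377, 3449 and 3373 CPM in shControl and 3623, 3783 and 3586 CPM in shCK5-22. It rose by 7.77% without overlap (log2 0.11, SE 0.0278, adjusted p = 0.0043). These genes follow the ribosomal RNA genes on the heavy-strand precursor, and the ribosomal RNAs themselves were not called: MT-RNR1 had a log2 fold change of 0.05 (SE 0.105, adjusted p = 0.782) and MT-RNR2 of 0.06 (SE 0.064, adjusted p = 0.574). Both were called higher without shCK5-22 replicate 1, at log2 0.15 (adjusted p = 0.000719; range over alternatives 0.000719 to 0.942) and 0.12 (adjusted p = 0.0133; range 0.0133 to 0.959).

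**Figure D2:**
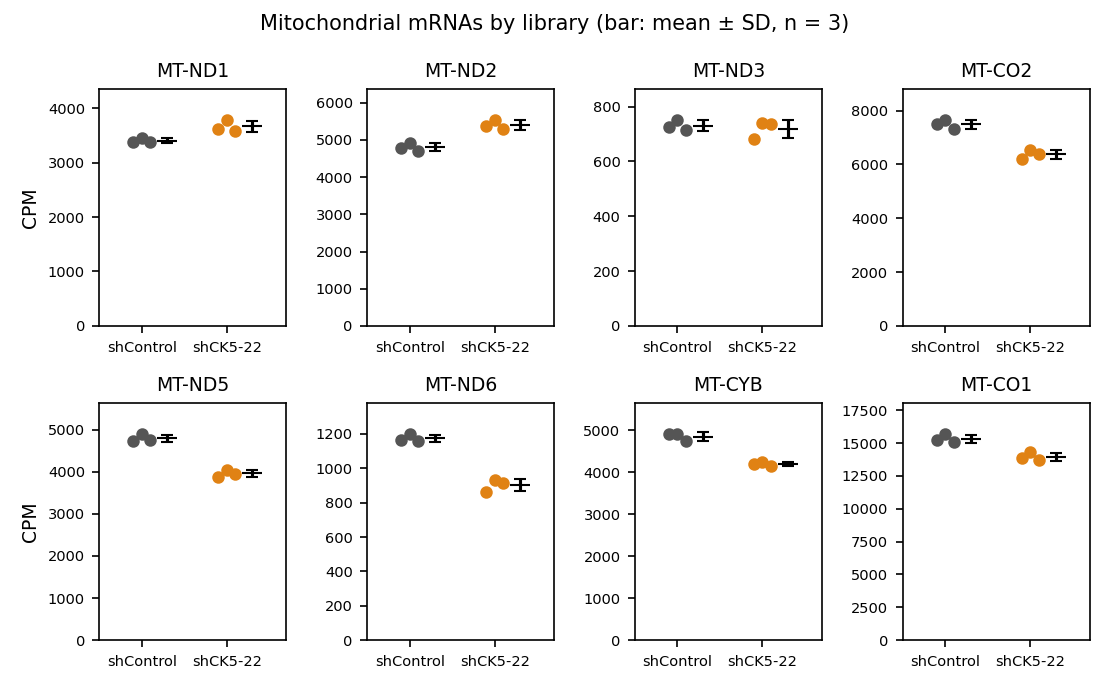
Level in CPM (vertical axes, from 0) of 8 mitochondrial mRNAs in each library, grey for shControl and orange for shCK5-22, with mean ± SD of 3 libraries beside the points. The shCK5-22 points of MT-ND1 and MT-ND2 lie above the controls, those of MT-CO1, MT-CO2, MT-CYB, MT-ND5 and MT-ND6 below, and those of MT-ND3 among them.

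All 3 cytochrome c oxidase mRNAs fell without overlap between the groups. MT-CO2, which carries the copper site that accepts electrons from cytochrome c, was 7486, 7655 and 7325 CPM in shControl and 6211, 6546 and 6382 CPM in shCK5-22 (log2 -0.23, SE 0.0279, adjusted p = 1.2e-06). MT-CO3 fell by 11.1% (adjusted p = 0.000415) and MT-CO1, the heme-bearing catalytic subunit, fell by 8.91% (adjusted p = 0.000462). MT-CYB was 4902, 4903 and 4735 CPM in shControl and 4198, 4230 and 4153 CPM in shCK5-22, also without overlap (log2 -0.21, SE 0.0264, adjusted p = 2.27e-06). Both ATP synthase mRNAs fell: MT-ATP6 fell by 6.01% (adjusted p = 0.0125) and MT-ATP8 fell by 7.41% (adjusted p = 0.0373), the latter with 1 shCK5-22 library at 834 CPM inside the control range of 828.4 to 876.6 CPM.

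The 4 falls of 0.11 or less on the log2 scale depended on single libraries. MT-ND4 and MT-ATP6 lost the call without shControl replicate 2 (adjusted p = 0.0634 and 0.0606) or shCK5-22 replicate 3 (0.066 and 0.0666). MT-ND4L lost it without shControl replicate 1 (0.0647), shControl replicate 3 (0.0621) or shCK5-22 replicate 1 (0.0853), and MT-ATP8 without shControl replicate 1 (0.145), shControl replicate 2 (0.11) or shCK5-22 replicate 1 (0.117). Over all alternatives, adjusted p ranged from 0.000293 to 0.066 for MT-ND4, from 0.000699 to 0.0666 for MT-ATP6, from 0.00437 to 0.0853 for MT-ND4L and from 0.00136 to 0.145 for MT-ATP8. The other 8 calls held whichever library was left out.

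As shares of all counts, the 13 mRNAs together took 6.87%, 6.96% and 6.74% in the shControl libraries and 6.24%, 6.31% and 6.22% in the shCK5-22 libraries. The means were 6.86% ± 0.107 and 6.26% ± 0.049 (SD, n = 3 each), and the groups did not overlap (exact permutation test, two-sided p = 0.1, the smallest that 3 against 3 allows). In bulk RNA, fewer cells with a transcript and less of it per cell cannot be told apart. The 2 mitochondrial ribosomal RNAs took 0.533% ± 0.0186 and 0.548% ± 0.0413 of counts, with overlap (exact permutation p = 0.6, n = 3 each), and shCK5-22 replicate 1 had the lowest share of all, 0.504%. The sources used here do not say whether poly-A selection, which changes how ribosomal RNA is captured, was used.

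Ratios within a library do not depend on library size. Counts of MT-ND1 and MT-ND2 together made up 12%, 12% and 12.1% of the 13 mRNAs in shControl and 14.5%, 14.5% and 14.2% in shCK5-22. The ratio of MT-ND2 to MT-ND6 counts was 4.12, 4.11 and 4.05 in shControl and 6.2, 5.96 and 5.8 in shCK5-22, with no overlap. The ratio of MT-ND2 to MT-CO1, both on the heavy-strand precursor, was 0.315, 0.314 and 0.311 in shControl and 0.387 in each shCK5-22 library. For the neighbours MT-ND5 and MT-ND4 the ratio went from 0.464, 0.466 and 0.47 to 0.406, 0.413 and 0.412. These pairs were chosen after the changes of the single mRNAs were seen, so the ratios are a description, with no test. As a description over the 13 mRNAs, the Spearman correlation of log2 fold change with gene start was -0.54. It includes the only rises, MT-ND1 and MT-ND2, which start first, and MT-ND6, which lies on the other strand. The correlation without them was not computed. Among the others, MT-CO1 (-0.13) and MT-CO2 (-0.23) start before MT-ND3 (-0.02) and MT-ND4 (-0.09), and MT-ND5 (-0.28) and MT-CYB (-0.21) start later. With GC content, which ran from 39.6% to 47.7%, the correlation was -0.15. These mRNAs share their libraries and precursors.

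Nuclear copies of these genes could in principle divert reads. The table held 392 rows named as copies of mitochondrial mRNA genes, of which 356 were at 0 in every library. The rest summed to 412 to 665 counts per library, beside 3269803 to 4553096 counts for the 13 mRNAs, or 0.0115% to 0.0147% of them. The treatment of reads that match several places is not given, so these counts do not measure how many reads were diverted or lost. Reads from the strand opposite MT-ND6 cannot be told apart from it unless strand was used in counting, and the sources used here do not say.

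Per kilobase of exon, the order of the mitochondrial levels in shControl ran from MT-CO2 (10948 ± 241 CPM per kb, SD, n = 3) and MT-CO1 (9942 ± 198) through MT-CO3 (9862 ± 406), MT-ATP6 (8459 ± 186) and MT-ND4 (7456 ± 145) to MT-ND6 (2236 ± 40.9) and MT-ND3 (2110 ± 56.7). Neighbours in this order that did not differ beyond their spread were MT-CO1 and MT-CO3, MT-CYB (4248 ± 84.8) and MT-ATP8 (4135 ± 120), and MT-ND1 (3556 ± 44.9) and MT-ND4L (3499 ± 20.7). The highest of the 13 was 5.19 times the lowest, although 12 of them are cut from the same heavy-strand precursor. The nuclear subunits stood far lower, with a median of 13.9 CPM per kb over the 32 tested, and the highest of them, NDUFS5, reached 195.5 ± 8.4. The lowest mitochondrial mRNA was thus 10.8 times the highest nuclear subunit per kilobase. Exon length here joins the exons of all annotated transcripts, which lowers the values of nuclear genes with several transcripts. NDUFA5 has 9851 bases by this measure and 1901 in its principal transcript, and NDUFS8 has 4523 and 791. For NDUFS5 both lengths are 548 bases.

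Among the 38 nuclear subunit genes, 32 passed the filter, and of these 4 rose, 5 fell and 23 did not pass the test. The called share was 28.1%, beside 34.2% of all tested genes, and the median log2 fold change was -0.01, equal to that of all genes; it was 0.04 without shCK5-22 replicate 1 and between -0.05 and 0.04 with each library left out. Groups did not overlap for 10 of the 32, a smaller share than the 45.1% of all tested genes. A single change stood out in size: NDUFB7 fell by 37.6%, whereas the other 8 called subunits changed by between -0.19 and 0.27 on the log2 scale.

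**Figure D3:**
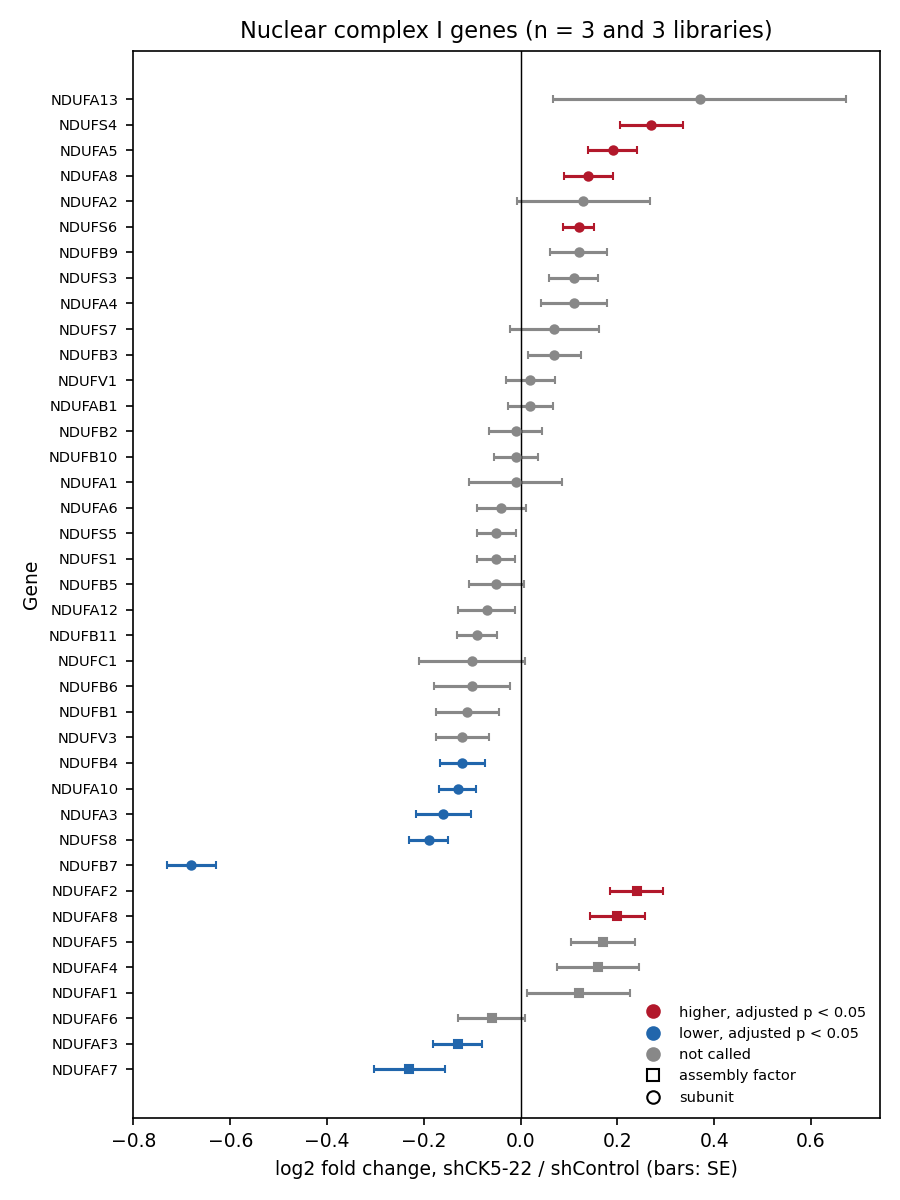
Log2 fold change (horizontal axis, shCK5-22 over shControl, bars are SE) of 31 of the 32 tested nuclear subunits (circles) and 8 assembly factors (squares), ordered by value within each group. NDUFB7 lies apart at -0.68, while most other genes lie within 0.2 of 0; the wide bar of NDUFA13 belongs to a gene with 23 to 55 counts per library.

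NDUFB7 is an accessory subunit at the far end of the membrane arm that faces the intermembrane space. Its level was 64.96, 70.9 and 66.03 CPM in shControl and 39.14, 45.28 and 41.61 CPM in shCK5-22. The highest shCK5-22 library lay well below the lowest control (log2 -0.68, SE 0.0511, adjusted p = 2.73e-09), and the call held in every alternative, with adjusted p at most 7.74e-07. The gene (chr19:14566078-14572062, minus strand, GRCh38) overlaps no other annotated gene. Of the 3 other tested genes within 50000 bases, none was called: TECR had a log2 fold change of -0.01, DNAJB1 of -0.04 and ADGRE3 of -0.06. Over all tested genes 34.2% were called, and whether the change was limited to NDUFB7 was not tested.

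Promoters are shown for NDUFB7 and for NDUFS4, the called subunit with the largest rise, from 250 bases before to 50 after the RefSeq start in GRCh38.p14. NDUFB7 is at chr19:14572017-14572316 on the minus strand and NDUFS4 at chr5:53560389-53560688 on the plus strand. Capitals mark the single motif match that each holds, CCGGAAG (the core bound by ETS factors such as GABPA) in NDUFB7 and AANATGGCG (bound by YY1) in NDUFS4.
NDUFB7 promoter: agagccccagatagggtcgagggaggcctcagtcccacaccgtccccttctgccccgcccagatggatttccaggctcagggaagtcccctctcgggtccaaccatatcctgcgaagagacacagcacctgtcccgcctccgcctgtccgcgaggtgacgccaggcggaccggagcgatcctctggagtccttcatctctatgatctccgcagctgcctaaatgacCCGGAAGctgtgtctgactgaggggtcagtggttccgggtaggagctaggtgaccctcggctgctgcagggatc
NDUFS4 promoter: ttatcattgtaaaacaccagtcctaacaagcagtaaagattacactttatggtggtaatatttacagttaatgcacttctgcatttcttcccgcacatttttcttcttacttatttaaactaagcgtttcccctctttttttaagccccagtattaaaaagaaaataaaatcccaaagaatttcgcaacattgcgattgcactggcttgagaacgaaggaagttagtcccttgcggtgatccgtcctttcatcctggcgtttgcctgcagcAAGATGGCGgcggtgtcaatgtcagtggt
Promoters of 39 of the 46 nuclear members were found in the table; those not found included NDUFA4, NDUFB5, NDUFB9, NDUFC2, NDUFS5 and NDUFAF6.

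Searched on both strands, AANATGGCG was in 10 of the 39 promoters (25.6%), beside 3.37% of all 27305 promoters of this length. The NRF1 motif (GCGC and TGCGC separated by any 1 base) was in 7 (17.9%, beside 6.28%) and CCGGAAG in 6 (15.4%, beside 10.7%). Matches of different motifs overlapped in 0 of the 39 promoters. For the YY1 and NRF1 motifs, called members with the same motif were found in both directions, whereas NDUFB7 was the only called member with CCGGAAG. NDUFS4 and NDUFS6, which rose, and NDUFS8, which fell, each held 1 match to AANATGGCG. NDUFA8, which rose, held 2 matches to the NRF1 motif, and NDUFA3 and NDUFB4, which fell, held 2 and 3.
NDUFB4 promoter: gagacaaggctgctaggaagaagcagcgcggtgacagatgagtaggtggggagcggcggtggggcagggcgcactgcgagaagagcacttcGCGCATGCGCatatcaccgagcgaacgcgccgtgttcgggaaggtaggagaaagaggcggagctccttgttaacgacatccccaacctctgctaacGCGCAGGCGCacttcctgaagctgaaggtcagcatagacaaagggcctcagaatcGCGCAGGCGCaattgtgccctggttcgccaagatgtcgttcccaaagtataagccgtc
This promoter (chr3:120596086-120596385, plus strand) is shown with its 3 NRF1 matches in capitals, the most of any member.

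Of the 10 N module genes, 8 were tested, 2 rose and none fell (0 lower also with DESeq2, and 1 lower at an unadjusted edgeR p under 0.05). Over all tested genes, 17.4% were called higher and 16.8% lower. NDUFS4, an accessory subunit added late in assembly and a frequent site of complex I deficiency, was 18.1, 21.35 and 18.45 CPM in shControl and 23.07, 22.84 and 23.97 CPM in shCK5-22. Its groups did not overlap (log2 0.27, SE 0.0655, adjusted p = 0.00283). NDUFS6, a zinc-binding subunit, rose from 142.4 ± 4.5 to 154.5 ± 2.25 CPM (SD, n = 3 each; log2 0.12, edgeR adjusted p = 0.00684), without overlap. The catalytic NDUFV1, which carries the flavin, was not called (log2 0.02, adjusted p = 0.841).

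The Q module held a called gene in each direction among 5 tested, beside 17.4% higher and 16.8% lower over all tested genes. NDUFS8, a core subunit with iron-sulfur clusters near the ubiquinone site, was 71.37, 68.2 and 69.77 CPM in shControl and 58.13, 61.75 and 63.08 CPM in shCK5-22, with no overlap (log2 -0.19, SE 0.0405, adjusted p = 0.000695). NDUFA5, an accessory subunit, was 31.87, 29.52 and 31.7 CPM in shControl and 36.05, 34.33 and 36.09 CPM in shCK5-22, also without overlap (log2 0.19, SE 0.0503, adjusted p = 0.00448). NDUFS8 was the only called gene of the 6 nuclear core subunits tested (those with counterparts in bacteria), and without shCK5-22 replicate 1 2 of them were called higher. Leaving out that library also raised the number of Q module genes called higher from 1 to 3.

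**Figure D4:**
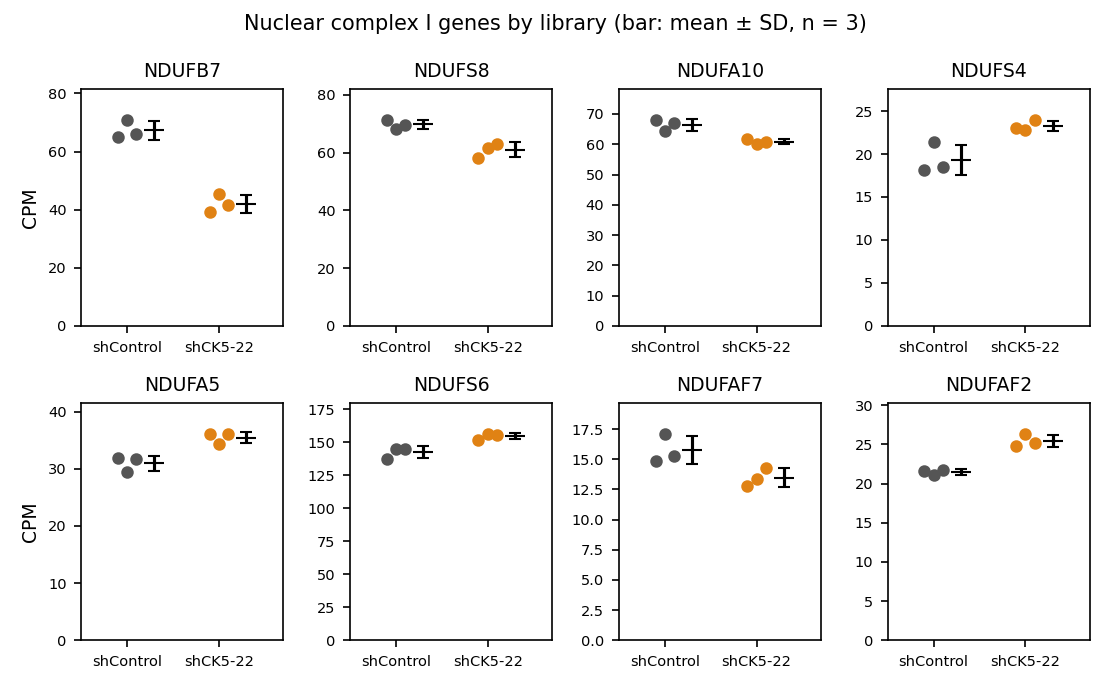
Level in CPM (vertical axes, from 0) of 8 nuclear complex I genes in each library, grey for shControl and orange for shCK5-22, with mean ± SD of 3 libraries beside the points. The points of NDUFB7 separate most, from 64.96 CPM or more to 45.28 CPM or less.

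In the P module, 17 of 20 genes were tested, 4 fell and 1 rose. The shares over all tested genes were 16.8% lower and 17.4% higher. Apart from NDUFB7, NDUFA3 fell by 10.5% (adjusted p = 0.0323). NDUFA10, a matrix-side subunit of the membrane arm, fell by 8.45% (adjusted p = 0.0138), and NDUFB4 fell by 8.27% (adjusted p = 0.0425). NDUFA8, on the intermembrane space side, rose by 9.95% (adjusted p = 0.0404). The groups overlapped for NDUFB4 and NDUFA8 and did not for NDUFA3 and NDUFA10.

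Of these calls, 5 rested on single libraries, and NDUFB7, NDUFS8, NDUFS4 and NDUFA5 kept theirs whichever library was left out. NDUFS6 lost its call without shControl replicate 1 (adjusted p = 0.0749, range over alternatives 0.00157 to 0.0749), and NDUFA10 without shControl replicate 1 (0.0583) or 3 (0.0603; range 0.00706 to 0.0603). NDUFA3 lost it in 5 of 6 such fits, the exception being shCK5-22 replicate 2 (range 0.0105 to 0.147), and NDUFB4 without any of 4 libraries, shControl replicates 1 and 2 and shCK5-22 replicates 1 and 3 (range 0.00761 to 0.175). NDUFA8 lost it without shControl replicate 1 or 2 or shCK5-22 replicate 2 or 3 (range 0.00349 to 0.237). The number of subunits called higher was 2 without shControl replicate 1 and 8 without shCK5-22 replicate 1, and the number called lower was 2 and 3.

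NDUFA4 carries a complex I name but is now regarded as a subunit of cytochrome c oxidase. It was 31.45, 30.59 and 31.32 CPM in shControl and 29.01, 35.5 and 36.02 CPM in shCK5-22, where replicate 1 lay below and the others above all controls. It was not called (log2 0.11, SE 0.0678, adjusted p = 0.265), but without shCK5-22 replicate 1 it was (log2 0.20, adjusted p = 0.00259; range over alternatives 0.00259 to 0.666). Its counts leave the subunit totals unchanged: 4 higher and 5 lower of 31 without it.

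Some conserved subunits of complex I had almost no counts. NDUFA7, NDUFA9 and NDUFB8 were at 0 in all 6 libraries, NDUFV2 had at most 1 count, NDUFC2 at most 6 and NDUFA11 1 to 9, and these 6 genes were not tested. NDUFA13 was tested with 23 to 55 counts (log2 0.37, SE 0.302, adjusted p = 0.386). All 7 share at least 10% of their principal GENCODE 29 transcript with another gene on the same strand, from 11.8% in NDUFA9 to 82.9% in NDUFV2. Only 1 other subunit shares that much, NDUFV1 at 16.7%, and it had 3586 to 5222 counts. The 30 subunits that share less had at least 191 counts in every library. Measured over all annotated exons instead, the split was less clean. NDUFS3 shares 19.6% on the same strand and had 1632 to 2215 counts, and NDUFC1 shares 18.5% and had 850 to 1256. NDUFA11, with 1 to 9 counts, shares 9.65% by that measure. A count of 0 in the table is therefore given as listed, and the sources used here do not say how reads in shared sequence were counted.

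**Figure D5:**
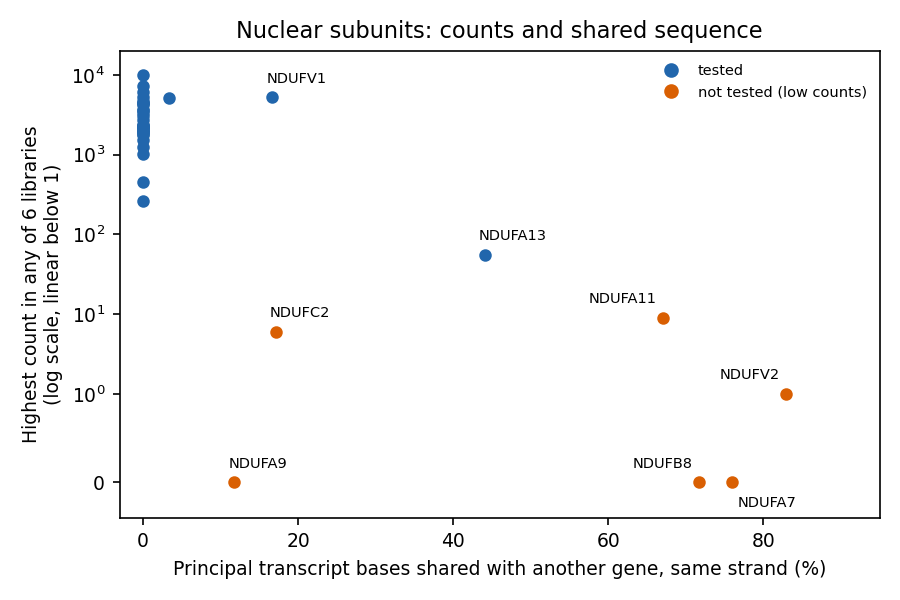
Highest count in any library (vertical axis, log scale, linear below 1) of the 38 nuclear subunits against the percentage of principal transcript bases shared with another gene on the same strand. Genes with at least 10% shared are named, and 7 of these 8 lie at 55 counts or fewer.

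Among the 8 assembly factors, all tested, 2 rose, 2 fell and 4 did not pass the test. The called share was 50%, beside 34.2% of all tested genes. Groups did not overlap for 6 of the 8, beside 45.1% of all tested genes. The median log2 fold change was 0.14, against -0.01 over all tested genes. Leaving out shControl replicate 3 gave 0.07 for the assembly factors, and leaving out any other library at most 0.18. NDUFAF2, which acts late when the N module is joined, was 21.63, 21.04 and 21.76 CPM in shControl and 24.81, 26.32 and 25.18 CPM in shCK5-22, with no overlap (log2 0.24, SE 0.0551, adjusted p = 0.00146). NDUFAF8, a partner of NDUFAF5, rose by 14.6% (adjusted p = 0.00995). NDUFAF5 itself, which hydroxylates the Q module subunit NDUFS7, stood at log2 0.17 (SE 0.0655, adjusted p = 0.0501, range over alternatives 0.0415 to 0.19). NDUFAF7, a methyltransferase that acts early in assembly, was 14.87, 17.09 and 15.31 CPM in shControl and 12.78, 13.34 and 14.3 CPM in shCK5-22, without overlap (log2 -0.23, SE 0.0732, adjusted p = 0.0186). NDUFAF3 fell by 8.92% (adjusted p = 0.0465).

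The call of NDUFAF2 held whichever library was left out, and those of the other 3 did not. NDUFAF8 lost it without shControl replicate 3 (adjusted p = 0.0893, range over alternatives 0.00334 to 0.0893), NDUFAF7 without shControl replicate 2 (0.133) or shCK5-22 replicate 1 (0.0542; range 0.0093 to 0.133), and NDUFAF3 in 5 of 6 such fits, the exception being shCK5-22 replicate 3 (range 0.0303 to 0.165). Without shControl replicate 2 or shCK5-22 replicate 1, no assembly factor was called lower by edgeR, with 1 lower at an unadjusted p under 0.05 in each case; DESeq2 on all libraries called 1. NDUFAF3 shares 21.7% and NDUFAF7 9.53% of its exon bases with genes on the opposite strand.

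Assembly factors without an NDUFAF name numbered 12, of which 11 were tested, 1 rose and 1 fell (all tested genes: 17.4% higher and 16.8% lower). DMAC2, listed under its older symbol ATP5SL and known for assembly of the distal membrane arm, was 58.41, 55.88 and 59.31 CPM in shControl and 32.14, 31.34 and 32.42 CPM in shCK5-22. The groups lay far apart (log2 -0.86, SE 0.0443, adjusted p = 2.89e-12). ECSIT, part of the intermediate assembly complex with NDUFAF1, was 38.85, 37.14 and 38.06 CPM in shControl and 47.63, 47.61 and 51.98 CPM in shCK5-22 (log2 0.37, SE 0.0471, adjusted p = 2.6e-06). Leaving out shCK5-22 replicate 1 gave 2 rises in this list, and leaving out shCK5-22 replicate 2 gave 2 falls. The ECSIT partner NDUFAF1 was not called (log2 0.12, SE 0.106, adjusted p = 0.428).

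Nuclear subunits of the other complexes were mostly not called, as were most tested genes (17.4% called higher and 16.8% lower). In complex III, 2 of 8 tested rose and none fell: CYC1, cytochrome c1, with log2 0.27 (SE 0.0319, adjusted p = 8.35e-07) and UQCRC1 with 0.18 (adjusted p = 9.15e-05). In complex IV, 2 of 9 rose and none fell, COX7C by 17.7% (adjusted p = 0.000535) and COX4I1 by 9.98% (adjusted p = 0.000847), while the 3 mitochondrial mRNAs of that complex fell. In complexes III and IV no gene was lower at an unadjusted edgeR p under 0.05 (0 each), and DESeq2 called 0 lower. In complex V, 1 of 13 rose, the catalytic ATP5B (log2 0.18, adjusted p = 4.45e-05), and 2 fell, of which ATP5F1 changed most (log2 -0.20, adjusted p = 0.000181). In complex II, 1 of 4 rose, SDHA (log2 0.08, adjusted p = 0.0211), a call lost without shControl replicate 2, shControl replicate 3 or shCK5-22 replicate 3 (adjusted p up to 0.103). Without shCK5-22 replicate 2, 1 complex III gene and 2 complex IV genes were called lower, and complex V had 3 rises without shCK5-22 replicate 1 and 2 without shControl replicate 2.

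Of 14 tested genes of mitochondrial transcription and DNA maintenance, 3 rose and 1 fell. The shares over all tested genes were 17.4% higher and 16.8% lower. TFAM, which packages mitochondrial DNA and starts its transcription, was 59.3, 58.61 and 56.86 CPM in shControl and 67.51, 70.42 and 65.71 CPM in shCK5-22, without overlap (log2 0.22, SE 0.0399, adjusted p = 0.000161). SSBP1, the mitochondrial single-strand DNA binding protein, fell by 13.4% (adjusted p = 0.00344). The mitochondrial RNA polymerase POLRMT had a log2 fold change of 0.00 (SE 0.0414, adjusted p = 0.962).

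Genes of mitochondrial RNA processing and stability gave 1 rise and 2 falls among 15 tested, against 17.4% higher and 16.8% lower over all tested genes. PNPT1, a ribonuclease of the mitochondrial degradosome, was 87.96, 86.13 and 86.97 CPM in shControl and 75.07, 76.95 and 74.51 CPM in shCK5-22, without overlap (log2 -0.20, SE 0.0347, adjusted p = 8.48e-05). PTCD2 fell by 20.2% (adjusted p = 0.0125), a call lost without shControl replicate 2, shControl replicate 3 or shCK5-22 replicate 1 (adjusted p up to 0.0608). The rise, of SUPV3L1 (log2 0.13, adjusted p = 0.0283), was lost when any library other than shCK5-22 replicate 2 was left out. LRPPRC, which stabilizes mitochondrial mRNAs, was not called (log2 0.03, SE 0.0314, adjusted p = 0.499).

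Of 9 nuclear regulators of mitochondrial genes, 5 rose and none fell by edgeR, and 0 were lower at an unadjusted p under 0.05 or with DESeq2. Over all tested genes, 17.4% were called higher and 16.8% lower. MYC was 153.3, 158.2 and 152.5 CPM in shControl and 174.7, 186.3 and 178.3 CPM in shCK5-22 (log2 0.22, SE 0.0321, adjusted p = 1.69e-05), and GABPB1 rose by 13.4% (adjusted p = 0.00421). The coactivator PPARGC1A rose from 0.292 ± 0.0886 to 0.954 ± 0.199 CPM (SD, n = 3 each), a low level throughout. NRF1 had a log2 fold change of -0.01 (SE 0.0466, adjusted p = 0.935). Of 63 tested mitochondrial ribosomal protein genes, 13 rose and 5 fell, led by MRPL42 (log2 0.48, adjusted p = 2.5e-08) and MRPL52 (log2 0.36, adjusted p = 1.12e-06). Their called share of rises lies near the 17.4% of all tested genes. The 5 falls are a smaller share than the 16.8% called lower over all tested genes.

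GC content of the principal transcript had a median of 56.4% (42.6% to 65%) over the 7 nuclear members that fell and 48.6% (36.4% to 60.2%) over the 6 that rose, beside 49.2% over all tested genes with a coding transcript. As a description, the Spearman correlation of GC content with log2 fold change was -0.13 over 40 tested nuclear members and -0.12 over 13150 genes. Its part in the differences between members was not tested.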

How the data were processed

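Total RNA was extracted with DNase treatment and sequenced by Illumina protocols, per the labels. The authors deposited whole-number read counts per gene symbol; cutadapt, STAR, SAMtools, Cufflinks and build GRCh38 are named in the submitters' processing notes, and for the counting tool, its annotation, its use of strand and its treatment of shared reads nothing is given in the sources used here. In the table, 27 rows named by a date (0.167% to 0.175% of counts) were left out. Libraries held 47622067 to 65429616 counts, so a count of 3 is 0.046 to 0.0624 CPM. Floors cover counting error only.

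Counts of both groups were fitted with edgeR 4.0.16 (R 4.3.3; TMM, filterByExpr, robust quasi-likelihood test, checked on simulated data), and two-sided p-values were adjusted by Benjamini-Hochberg over 18008 genes at 0.05. CPM use TMM-scaled library sizes, and SDs are over 3 libraries. SEs were obtained by dividing each log2 fold change by the root of its F statistic. No label says whether replicates are separate cultures; p-values thus reflect only the variation among these 6 libraries, possibly technical. Libraries of 1 group differed beyond sampling noise and were all kept.

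Members and gene lists were chosen with earlier results of these data known. Named are KRT5, all mitochondrial mRNAs, called complex I genes, NDUFA4 and the 2 called members of each further list with the largest change at 1 CPM or more; DNAJB1, TECR, ADGRE3, SUPV3L1, NDUFA13, NDUFV1, NDUFAF1, NDUFAF5, PPARGC1A, POLRMT, LRPPRC, NRF1 and the markers were added after their values were seen. Of the hormone receptor list ERBB2 (log2 -0.52) and ESR1 (-0.33) fell, of the epithelial markers KRT19 (-0.63), CDH1 (-0.37) and EGFR (-0.18), of the endothelial markers PECAM1 (-1.20, a call lost without shControl replicate 3, shCK5-22 replicate 2 or 3), and of the fibroblast markers LUM and PDGFRB rose; no leukocyte marker was called. Alternatives were RLE, upper quartile or library-size scaling, mitochondrial rows left out of library sizes, no filter, at least 1 CPM in 3 libraries, adjusted p under 0.01, DESeq2 1.42.0, limma-voom (limma 3.58.1), a replicate block and leaving out each library. The values of 1 member are not reported here singly; it stays in the fits and counts. Promoters are from a RefSeq table of GRCh38.p14, and mitochondrial sequences from GENCODE 29.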

Additional observations from a re-analysis of the deposited data

How the results depend on the processing

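The number of mitochondrial mRNAs called higher was 2 in every alternative, and the number called lower was 6 at an adjusted p under 0.01 and 7 to 10 with each library left out. Nuclear subunits called higher numbered 2 to 8, and those called lower 2 to 5, with each library left out; called lower were 2 at an adjusted p under 0.01 and 3 with DESeq2. Assembly factors called higher numbered 1 to 2 with each library left out. They numbered 3 with RLE or upper quartile scaling, mitochondrial rows left out of library sizes, limma-voom or a replicate block. Those called lower numbered 0 to 2 with each library left out, 0 at an adjusted p under 0.01, and 1 with upper quartile scaling, with mitochondrial rows left out of library sizes, with no filter and with DESeq2; the cause was not tested. The median log2 fold change of the mitochondrial mRNAs ran from -0.13 to -0.08 with each library left out, and MT-ND3, not called, ran from -0.04 to 0.02, reversed without shCK5-22 replicate 1. Over 27 named genes and 432 gene-by-alternative values, 370 kept direction and call, 60 lost the call, 1 gained it and 1 changed sign.

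Same-numbered libraries did not deviate together (correlations 0.0165, 0.0517 and -0.00678), so the numbers were not taken as pairs; not every library correlated best with its own number. With a replicate block, 6743 genes were called instead of 6153, with 9 mitochondrial mRNAs lower and 2 higher, 4 nuclear subunits higher and 5 lower, and 3 assembly factors higher and 2 lower; MT-ATP8 was the mitochondrial mRNA that lost its call (adjusted p = 0.127).

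The data rest on 1 hairpin, 1 cell line and 3 libraries a group, and 1 shCK5-22 library stands apart. RNA levels do not measure complex I protein or activity. Depth does not limit the mitochondrial mRNAs, but 6 subunits could not be tested at their listed counts, and overlapping genes stay uncertain because the counting is not described.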
